A study of Eriocheir sinensis with 6 samples.

Results

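The genes described here are 98 long, weakly expressed predicted genes of the Chinese mitten crab (*Eriocheir sinensis*) that the authors listed as different between post-molt and pre-molt muscle. They were selected on measured values from the authors' list of 1684 genes, and the table of expression levels holds 18729 genes. The list held 1431 predicted genes, of which 1220 lay outside 5 chromosomes that were left out, and 122 of those were at least 4000 bases long. A largest pre-molt level above 0 and under 20 FPKM (fragments per gene, scaled for the gene's length and for the library) kept 102 of them. A smallest post-molt level under 300 FPKM kept 101, a largest post-molt level under 8 times the smallest kept 100, and 2 receptor genes were left out. The same limits without the length limit gave 581 shorter listed genes, which serve for comparison. Muscle RNA was sequenced from juvenile crabs that had shed the old shell (post-molt) and from juvenile crabs about to shed it (pre-molt), with 3 libraries per stage. Per the labels the crabs weighed 8.41 ± 1.47 g and were kept at 20 °C, and no treatment or genotype separates the stages. Per the study's methods each library came from a different crab, so the spread between libraries includes the crabs.

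Crustaceans grow by shedding a rigid shell, and the cycle runs from inter-molt through pre-molt and the molt itself to post-molt. Ecdysteroid hormones rise before the molt and drive it, and muscle is remodelled around it, since limbs must be drawn out of the old shell and then grow to fill the new one. The length of a gene matters to how well it can be measured, because a long transcript yields more sequenced fragments than a short transcript of the same abundance.

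The 98 genes carry prediction labels only. None of the IDs matched a named gene (0 matches), so, apart from 1 annotation taken from the study's text, no function is given to a gene below, no marker of muscle or of another cell type could be looked up, and the muscle label was not checked against marker genes. The fragments behind each value were recovered from the deposited levels. Library totals were 4168752 to 5117246 fragments for post-molt crabs and 5810072 to 6768319 fragments for pre-molt crabs. A single fragment in a gene of 4000 bases made 0.142 to 0.214 FPKM in post-molt, against 0.0505 to 0.0679 FPKM in pre-molt. The lowest levels were therefore measured more coarsely after the molt. In whole muscle, a lower level per cell and fewer cells that hold a transcript cannot be told apart.

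Of the 98 genes, 80 had a higher mean level in post-molt and 18 a lower one. Direction depends on how the libraries are scaled: with every library brought to a common FPKM sum, 68 were higher and 12 changed sign. Over all genes tested the median log2 fold change was −1.04 at that scaling and −0.09 as deposited, and 80 of the 98 exceeded the all-gene median under either scaling. The rule itself favours the higher direction, since it caps the pre-molt level at 20 FPKM and lets the post-molt level reach far above it. Among the 80 higher genes the median ratio of mean FPKM, post-molt over pre-molt, was 5.43, with quartiles of 2.95 and 11.8. Among the 18 lower genes the median was 2.84-fold lower in post-molt, and the range was 1.96 to 5.63-fold. The median level over the 98 genes was 8.60 FPKM in post-molt, against 3.12 FPKM in pre-molt. Post-molt means were under 20 FPKM in 73 genes and above 50 FPKM in 8, and pre-molt means were under 1 FPKM in 27 genes and above 10 FPKM in 9.

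**Figure D1:**
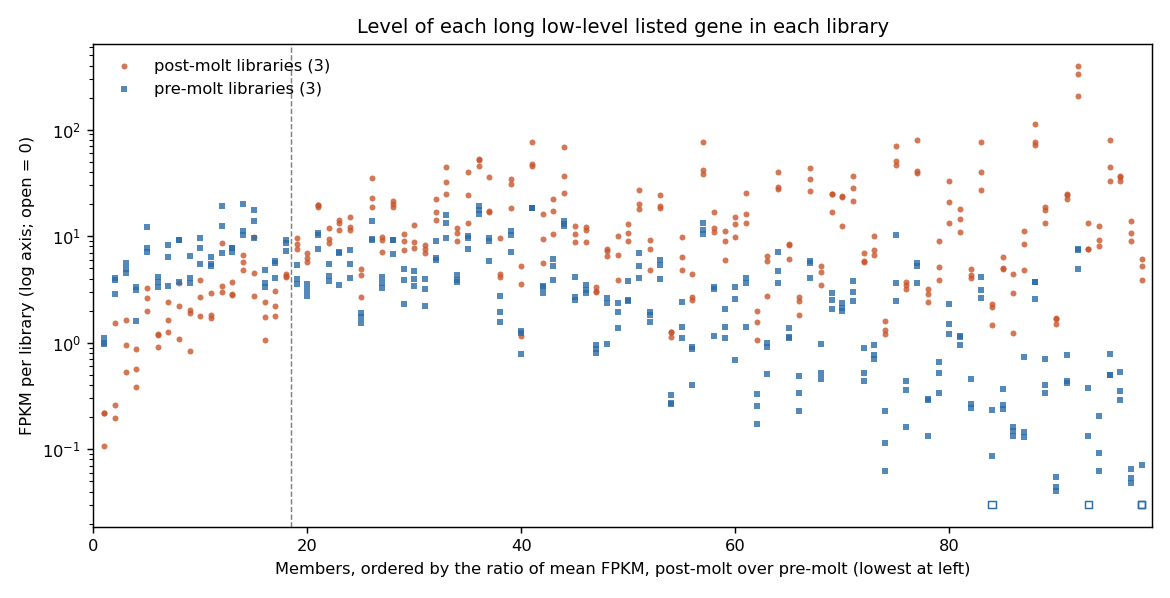
FPKM of the 98 long genes in each of 3 post-molt and 3 pre-molt libraries, on a log axis, ordered from the lowest to the highest ratio of mean levels, post-molt over pre-molt. Open symbols are libraries with no fragment, drawn at the bottom, and the dashed line parts the 18 genes lower in post-molt from the 80 higher ones. In the 5 genes at the right end every post-molt library lies above 3 FPKM and every pre-molt library under 1 FPKM.

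All 98 genes were in the limma test across 17465 genes, which uses log2(FPKM + 1) and calls a gene at an adjusted p of 0.05 and an absolute log2 fold change of 1. It called 57 of them, against 7.54% of all genes tested. Of these, 55 were called higher, against 5.93% of all genes, and 2 lower, against 1.6%. The count test of edgeR on the recovered fragments called 94 of the 98, against 11.3% of all genes, with 77 higher against 8.78% and 17 lower against 2.51%. The 3 post-molt and 3 pre-molt libraries did not overlap in 95 of the 98 genes, against 26.7% of all genes. In 79 all post-molt libraries were above all pre-molt libraries, against 14.2%, and in 16 they were below, against 12.5%. The genes were taken from a list made on this contrast, so these counts describe them and show nothing independent of that list. At a common FPKM sum limma called 48 of the 98, against 45% of 17882 genes tested at that scaling. There 30 were called higher, against 3.77% of all genes, and 18 lower, against 41.2%. The limma count was 33 without pre-molt replicate 1 and 36 without pre-molt replicate 3. The all-gene counts also fell in those fits, to 783 and 803, against 1316 with all libraries.

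The highest level after the molt belonged to evm.TU.CM024150.1.153_evm.TU.CM024150.1.154, a model merged from 2 predictions, 4653 bases long. It had 396, 334 and 205 FPKM in the 3 post-molt libraries, against 7.62, 4.96 and 7.42 FPKM in the 3 pre-molt libraries. Every post-molt library was far above every pre-molt library, with means of 312 ± 97.4 and 6.67 ± 1.48 FPKM (SD, n = 3 each), a ratio of 46.7. It also had the most fragments of the 98 genes, 6633 in all, and it is the gene nearest to the upper limit on the post-molt level. The next highest, evm.TU.CM024145.1.165 of 4107 bases, had 114, 71.1 and 76.9 FPKM in post-molt, against 3.67, 2.58 and 3.69 FPKM in pre-molt. Its ratio was 26.4.

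Some of the largest contrasts came from genes under 1 FPKM in every pre-molt library. The gene evm.TU.CM024160.1.477, of 5674 bases, had 36.2, 33.0 and 37.0 FPKM in post-molt, against 0.352, 0.287 and 0.534 FPKM in pre-molt, a ratio of 90.5. Its post-molt libraries lay close together, with an SD of 2.07 around a mean of 35.4 FPKM. A like pattern held for evm.TU.CM024116.1.67, one of the longest genes at 9976 bases, with 25.1, 24.5 and 22.5 FPKM in post-molt, against 0.422, 0.436 and 0.769 FPKM in pre-molt. That is a ratio of 44.3, in a gene with 1068 fragments in all. The model evm.TU.CM024149.1.401_evm.TU.CM024149.1.399_evm.TU.CM024149.1.402, merged from 3 predictions, had 18.9, 13.2 and 17.8 FPKM in post-molt, against 0.699, 0.403 and 0.337 FPKM in pre-molt. It was 34.6-fold higher after the molt.

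Other strong rises were less even among the post-molt crabs. For evm.TU.CM024167.1.29, of 4893 bases, the post-molt libraries had 80.6, 45.0 and 33.2 FPKM, against 0.498, 0.4999 and 0.784 FPKM in pre-molt. Replicate 1 was the highest post-molt library, and all 3 were far above pre-molt and the ratio of means was 89.1. For evm.TU.CM024121.1.673, of 4227 bases, post-molt libraries had 76.8, 40.4 and 27.3 FPKM, against 3.09, 2.64 and 4.16 FPKM in pre-molt. The order of the post-molt libraries was the same in both genes, and the ratio was 14.6 in the second.

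Ratios above 100 rested on almost no pre-molt fragments. The gene evm.TU.CM024160.1.499, of 4176 bases, had 101, 45 and 52 fragments in post-molt, against 1 in each pre-molt library. From the summed fragments, scaled by library, its ratio was 210, with an exact 95% interval of 70.9 to 1029. The gene evm.TU.CM024118.1.239, of 5667 bases and chosen after its values were seen, had 52, 26 and 40 fragments in post-molt, against 0, 0 and 2 in pre-molt. Its ratio was 188, with an interval of 50.9 to 1571. Another gene, evm.TU.CM024121.1.530, chosen likewise, had 33 fragments in post-molt against 3 in pre-molt, a ratio of 35.1 with an interval of 10.998 to 179. These intervals cover counting error only, and the counted fragments are not shown to be separate molecules. A pre-molt library had no fragment in 3 of the 98 genes.

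The 18 genes lower in post-molt had smaller contrasts, and both genes called lower by limma lost the call when any of 5 single libraries was left out. The model evm.TU.CM024163.1.542_evm.TU.CM024163.1.541, merged from 2 predictions, had 0.954, 0.527 and 1.62 FPKM in post-molt, against 4.89, 5.59 and 4.54 FPKM in pre-molt. It was 4.85-fold lower after the molt on 20 post-molt and 310 pre-molt fragments. The gene evm.TU.CM024120.1.14, of 7223 bases, had 3.23, 1.97 and 2.61 FPKM in post-molt, against 7.80, 12.1 and 7.13 FPKM in pre-molt, which is 3.46-fold lower. In both, no post-molt library reached the lowest pre-molt library. The library that kept these calls when left out was post-molt replicate 3.

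Larger ratios among the lower genes stood on fewer post-molt fragments. The model evm.TU.CM024134.1.301_evm.TU.CM024134.1.302, chosen after its values were seen, had 3, 1 and 2 fragments in post-molt, against 39, 28 and 38 in pre-molt, or 0.182 ± 0.0646 and 1.02 ± 0.0747 FPKM (SD, n = 3 each). It was 5.63-fold lower in post-molt. In evm.TU.CM024132.1.128, of 4389 bases, a single crab stood out: post-molt levels were 0.259, 1.53 and 0.195 FPKM, against 4.04, 3.84 and 2.85 FPKM in pre-molt. Post-molt replicate 2 was the highest of its group, at 8 fragments against 2 and 1, and this gene is the one nearest to the limit on spread within post-molt.

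The 3 longest genes included members of both directions. The longest, evm.TU.CM024140.1.242 at 11409 bases, had 22.5, 17.1 and 10.5 FPKM in post-molt, against 6.06, 3.91 and 5.28 FPKM in pre-molt, a ratio of 3.28. The second, evm.TU.CM024138.1.103 at 11337 bases, had 3.01, 3.40 and 8.68 FPKM in post-molt, against 12.5, 6.93 and 19.3 FPKM in pre-molt. Its mean was 2.56-fold lower in post-molt, but post-molt replicate 3 was above pre-molt replicate 2, so the groups overlapped. It had 2229 fragments in all, the second most of the 98 genes. The third, evm.TU.CM024140.1.366 at 10152 bases, had 4.42, 4.205 and 4.13 FPKM in post-molt, against 9.19, 8.65 and 7.20 FPKM in pre-molt. Those post-molt values were almost equal, and the difference, 1.96-fold lower, was the smallest of the 18 lower genes.

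Groups overlapped in only 3 of the 98 genes, which were singled out after their values were seen. Besides the gene of 11337 bases, they were evm.TU.CM024118.1.601 and evm.TU.CM024102.1.235. The first had 2.72, 4.52 and 9.91 FPKM in post-molt, against 17.5, 9.61 and 13.9 FPKM in pre-molt. The second had 1.16, 3.57 and 5.25 FPKM in post-molt, against 1.28, 0.787 and 1.24 FPKM in pre-molt. In all 3 the highest post-molt value was that of replicate 3. In evm.TU.CM024102.1.235, however, the overlap lay at post-molt replicate 1, with 1.16 FPKM against 1.28 and 1.24 FPKM in pre-molt replicates 1 and 3.

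Replicates did not contribute evenly. Among the 80 higher genes the highest post-molt library was replicate 1 in 39, replicate 3 in 33 and replicate 2 in 8, and the lowest pre-molt library was replicate 2 in 44. Among the 18 lower genes, post-molt replicate 3 was the highest of its group in 11. The median coefficient of variation over the 98 genes was 0.242 in post-molt and 0.249 in pre-molt. Ranked by level over the 98 genes, post-molt libraries had Spearman correlations of 0.924 to 0.968 with each other, pre-molt libraries 0.906 to 0.969, and libraries of different stages 0.263 to 0.393. The genes are no replicates of a condition, and the selection by stage difference lowers the last range, so these are descriptions.

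Each limit of the rule parted genes of the following values. The shortest gene kept was evm.TU.CM024145.1.713 at 4033 bases, with 3.21 FPKM in post-molt against 0.728 FPKM in pre-molt, and the longest left out was evm.TU.CM024164.1.532 at 3960 bases, with 14.3 FPKM in post-molt against 7.07 FPKM in pre-molt. The largest pre-molt value kept was 19.9 FPKM, in evm.TU.CM024152.1.216_evm.TU.CM024152.1.217, with means of 5.70 FPKM in post-molt against 13.8 FPKM in pre-molt. Just outside, evm.TU.CM024142.1.586 reached 23.5 FPKM, with 4.86 FPKM in post-molt against 16.9 FPKM in pre-molt. On the post-molt side the gene just outside was evm.TU.CM024122.1.10, whose smallest post-molt value was 529 FPKM, with 704 FPKM in post-molt against 0.303 FPKM in pre-molt. The limit on spread kept evm.TU.CM024132.1.128, with a largest post-molt value 7.82 times the smallest, and left out evm.TU.CM024156.1.158 at 15.3 times.

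The 98 genes lay on 46 chromosomes, 18 of which held a single one. The most were 7 on CM024145.1, all higher in post-molt, where 39 genes of this length were tested, followed by 5 on CM024127.1 and 5 on CM024160.1, likewise all higher. Merged models made up 10 of the 98, or 10.2%, against 1.89% of the shorter listed genes. Among all 963 genes of this length within the level limits, listed or not, they made up 4.36%. Lengths were under 5000 bases in 40 genes, from 5000 up to 8000 bases in 48 and at least 8000 bases in 10.

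Some members were neighbours. Between 13 pairs of members no more than 12 order numbers lay on the chromosome, and within each pair the direction was the same. With 80 of the 98 members higher, most pairs of members share a direction wherever they lie, and some of these pairs had a member in common. The members evm.TU.CM024148.1.187 and evm.TU.CM024148.1.188_evm.TU.CM024148.1.189_evm.TU.CM024148.1.190 had adjacent numbers, and both were called higher. The first had 76.1, 47.5 and 45.9 FPKM in post-molt, against 18.2, 18.2 and 18.4 FPKM in pre-molt, a ratio of 3.09. The second was 10.002-fold higher, with 10.1, 6.72 and 7.45 FPKM in post-molt against 0.705, 0.773 and 0.946 FPKM in pre-molt. Though adjacent, they differed in level and in ratio. On CM024158.1, evm.TU.CM024158.1.293 had 28.2, 36.7 and 21.2 FPKM in post-molt, against 3.75, 2.97 and 2.47 FPKM in pre-molt. Its neighbour evm.TU.CM024158.1.295, of 9180 bases, had 11.2, 5.93 and 9.04 FPKM in post-molt, against 1.401, 1.10 and 2.07 FPKM in pre-molt. Their ratios were 9.37 and 5.73.

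A run of genes on CM024127.1, chosen after its values were seen, had similar ratios. It held 3 members, evm.TU.CM024127.1.250, evm.TU.CM024127.1.253 and evm.TU.CM024127.1.256, of 7468, 8676 and 7125 bases. The first had 15.0, 9.75 and 13.1 FPKM in post-molt, against 2.55, 0.691 and 3.30 FPKM in pre-molt. The second had 16.8, 11.96 and 10.9 FPKM in post-molt, against 3.22, 1.16 and 3.33 FPKM in pre-molt. The third had 25.2, 16.1 and 13.2 FPKM in post-molt, against 3.64, 1.41 and 4.05 FPKM in pre-molt. Pre-molt replicate 2 was the lowest pre-molt library in all 3, and the ratios were 5.78, 5.13 and 5.99. The short genes that lie between them, evm.TU.CM024127.1.251, evm.TU.CM024127.1.252, evm.TU.CM024127.1.254 and evm.TU.CM024127.1.255, had ratios of 5.51, 4.59, 4.03 and 8.10, and evm.TU.CM024127.1.249 just before them had 5.18. The ratio of 4.59 rested on 4, 4 and 1 fragments in post-molt against 3, 2 and 1 in pre-molt, in a gene neither listed nor called by limma. That of 8.10 rested on 13, 5 and 3 fragments against 3, 1 and 4. The other short genes named here were in the authors' list for this contrast, as was evm.TU.CM024127.1.255. Past the run the pattern stopped: evm.TU.CM024127.1.258, of 5069 bases, had 2.47, 1.98 and 3.21 FPKM in post-molt, against 3.41, 4.29 and 3.63 FPKM in pre-molt. Whether the neighbouring models share transcripts or reads was not tested, and the strand setting of the count is not stated in the sources at hand.

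**Figure D2:**
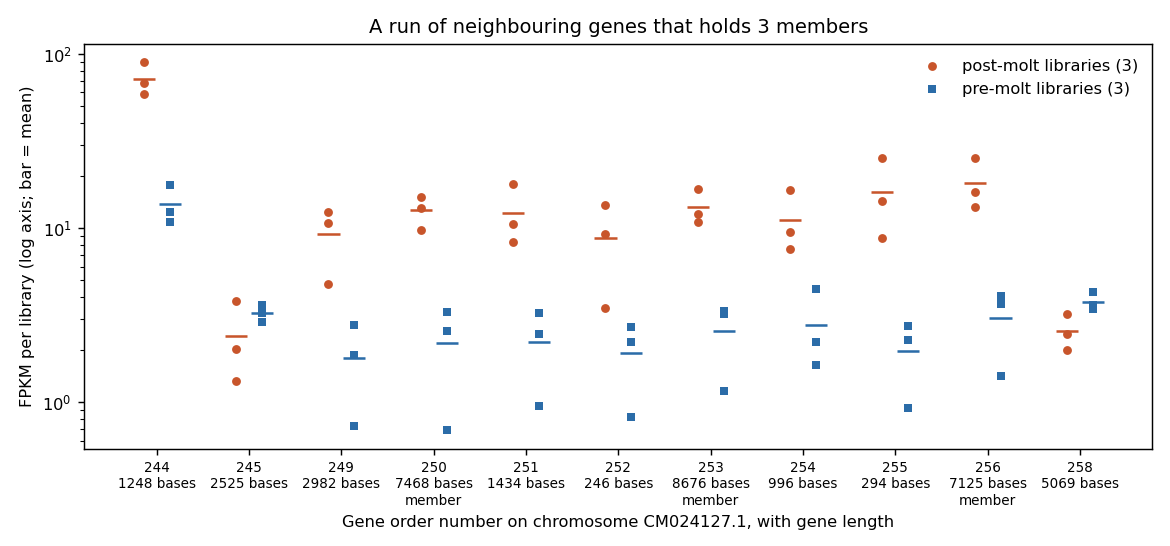
FPKM on a log axis in each of 3 post-molt and 3 pre-molt libraries for neighbouring genes in their order on chromosome CM024127.1, with the mean of each group as a bar and the gene length under each number. The 3 members, which are marked, and the shorter genes among them are all higher in post-molt, at ratios of 4.03 to 8.10, while the genes at the 2nd place and at the far right have lower means in post-molt.

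The other neighbouring pair with adjacent numbers was lower in post-molt. Besides the gene of 11337 bases it was evm.TU.CM024138.1.102, of 6720 bases, with 1.27, 1.62 and 2.42 FPKM in post-molt, against 6.40, 3.40 and 8.30 FPKM in pre-molt, or 3.41-fold lower. In both genes post-molt replicate 3 was the highest of its group and pre-molt replicate 2 the lowest, and neither was called by limma. This pair too was singled out after its values were seen.

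Direction and size were first compared between the whole sets of long and shorter listed genes, which were not of equal level. The median post-molt mean was 8.60 FPKM for the long and 18.4 FPKM for the shorter genes. Of the 98 long genes 81.6% were higher in post-molt, against 93.1% of the 581 shorter ones. The median ratio of the higher genes was 5.43 for long and 6.73 for shorter genes, and the median of the lower genes was 2.84-fold for long and 3.17-fold for shorter ones. Changes under 3-fold made up 31.6% of the long and 14.3% of the shorter genes, and changes of at least 8-fold 30.6% and 43.5%. Limma called 58.2% of the long and 75.4% of the shorter genes. Both sets came from the list and share all 6 libraries, so no test was made between them.

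At equal level, the median ratio of the genes higher in post-molt was smaller for long than for shorter genes in each of 6 classes of the larger group mean. In the class from 5 to 10 FPKM, 22 of 31 long genes were higher, with a median ratio of 4.16, against 96 of 114 shorter genes with a median of 5.98. In the class from 10 to 20 FPKM, the 17 higher of 20 long genes had a median ratio of 3.42, against 5.24 for the 104 higher of 121 shorter genes. With the lower genes counted in, the median ratios were 2.44 for long and 5.24 for shorter genes from 5 to 10 FPKM, and 3.34 for long and 4.57 for shorter genes from 10 to 20 FPKM. From 20 to 50 FPKM they were close, at 4.06 for 17 long and 4.31 for 169 shorter genes. Above 50 FPKM they were 10.7 for 8 long and 31.6 for 111 shorter genes. The class above 50 FPKM has no upper bound and its levels were not equal, with median post-molt means of 54.9 FPKM for long and 94.4 FPKM for shorter genes. Above 20 FPKM the rule admits higher genes only, so there the direction is set in advance.

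Long and shorter genes of equal FPKM do not rest on equal numbers of fragments. The median sum over the 6 libraries was 503.5 fragments for the long and 179 for the shorter genes. At equal numbers of fragments the order of the ratios varied. With under 150 fragments, 14 of 15 long genes were higher, at a median ratio of 10.5 among the higher genes, against 251 of 257 shorter genes at 7.60. With 150 to 300 fragments the higher genes were 15 of 18 long ones at 10.002, against 112 of 133 shorter ones at 4.41. With 300 to 600 they were 17 of 23 long ones at 3.22, against 95 of 108 shorter ones at 4.38. In these 3 classes the long genes had the larger ratio in the lower 2 and the smaller ratio in the third, also with the lower genes counted in, at 10.1 for long against 7.17 for shorter genes, 8.22 against 3.62 and 2.44 against 3.82. With 600 to 1200 fragments the higher genes were 21 of 26 long ones at 5.78 and all 53 shorter ones at 5.63, and the order turned to 4.03 for long against 5.63 for shorter genes with the lower genes counted in. With 1200 or more fragments the higher genes were 13 of 16 long ones at 3.28 and all 30 shorter ones at 70.0, or 3.03 for long against 69.98 for shorter genes with the lower genes counted in. The share of higher genes was lower among the long genes in each of the 5 classes. An example is 80.8% with 600 to 1200 fragments, where every shorter gene was higher. The cap of 20 FPKM on the pre-molt level limits the pre-molt fragments of a shorter gene more than those of a long one. From 600 fragments up, the rule therefore largely sets the direction of shorter genes in advance and favours large ratios among them. With 1200 or more fragments the median post-molt mean was 38.7 FPKM for long and 263 FPKM for shorter genes. Across the 98 long genes the Spearman correlation of the absolute log2 ratio was −0.34 with the sum of fragments and −0.27 with length. All points share the same libraries and selection, so these are descriptions.

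**Figure D3:**
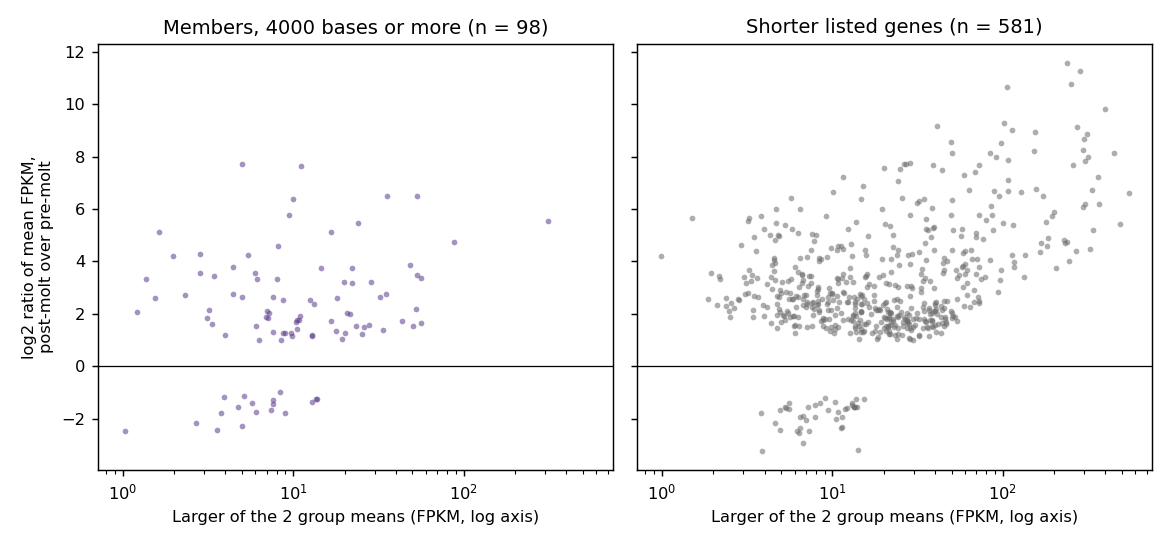
The log2 ratio of mean FPKM, post-molt over pre-molt, against the larger group mean on a log axis, for the 98 long genes and for the 581 shorter listed genes. Each point is 1 gene, and no gene lies near 0 because the authors' list leaves such genes out. The long genes have 81.6% of their points above 0 and the shorter genes 93.1%.

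Without the list, long genes of this level were more often lower than higher in post-molt, by a small median change. Among all genes within the same level limits, listed or not, 963 were at least 4000 bases long and 6372 were shorter. Of the long ones 40.1% were higher in post-molt, against 52.6% of the shorter ones. The median log2 fold change by limma was −0.12 for long and 0.02 for shorter genes. Over all genes tested 48.0% were higher and the median was −0.09. The order differed by level. At a mean of 4 to 8 FPKM the medians were −0.04 for long and −0.10 for shorter genes, with 46.6% and 45.1% higher. In the other level classes the long genes had the lower values. At 16 FPKM or more, where most genes were higher, lay 23 long and 366 shorter genes. The difference between the medians of all long and all shorter genes was −0.13, and −0.059 at a common FPKM sum. Over single post-molt libraries, each set against the same pre-molt mean, its SD was 0.05. That SD leaves out the spread among pre-molt crabs, so the difference was not tested. Limma called 5.92% of the long and 7.71% of the shorter genes, while edgeR called 10.9% of each. The list held 10.2% of the long and 9.12% of the shorter genes.

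How often a gene was listed depended on its length at a given level. Among genes with a mean of 2 to 16 FPKM within the limits, 2.57% of those under 500 bases were listed, 5.05% from 500 to 1000 bases, 8.49% from 1000 to 2000, 9.07% from 2000 to 4000, 9.93% from 4000 to 6000 and 14.8% of those of at least 6000 bases. The median number of fragments in the same classes grew from 37 to 549. The share called by limma, which works on levels and not on counts, stayed between 4.82% and 7.10%. The share called by edgeR on the fragments was 4.34% in the shortest class and 14.2% in the longest. The median limma log2 fold change was 0.13 in the shortest class and −0.17 in the longest. It did not fall at each step, with −0.111 from 2000 to 4000 bases and −0.106 from 4000 to 6000 bases. The part of fragment number in these shares was not tested.

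**Figure D4:**
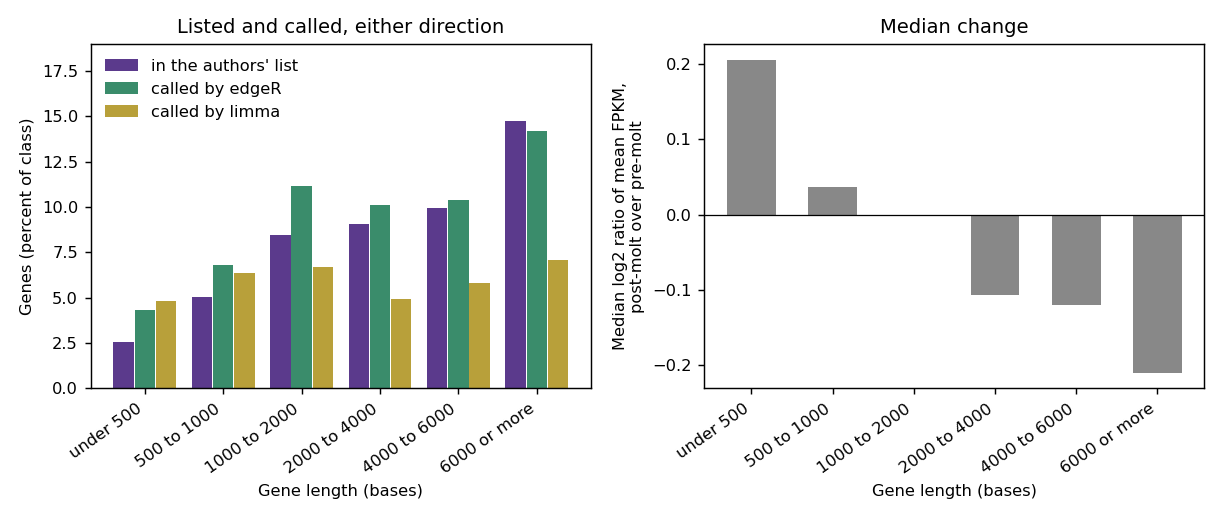
Bars on the left give the percent of genes of each length class, at a mean of 2 to 16 FPKM within the limits, that were in the authors' list, called by edgeR or called by limma. The listed share grows from 2.57% to 14.8% with length. Bars on the right give the median log2 ratio of mean FPKM, post-molt over pre-molt, which is above 0 in the shortest class and below 0 in the longest.

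Long low-level genes took a smaller share of the fragments in post-molt, and so did shorter low-level genes. This measure did not use the list. The 1417 genes of at least 4000 bases with a mean under 20 FPKM took 1.12%, 0.933% and 0.930% of fragments in the 3 post-molt libraries, against 2.23%, 1.90% and 3.01% in the 3 pre-molt libraries. The groups did not overlap, at 0.995% ± 0.110 and 2.38% ± 0.570 (SD, n = 3 each). A two-sided exact permutation test gave p = 0.1, the smallest that 3 against 3 libraries allow. The 14198 shorter genes with a mean under 20 FPKM, added after these values were seen, took 2.84%, 2.27% and 2.28% in post-molt, against 5.12%, 4.72% and 6.54% in pre-molt. The mean share was 0.417 of the pre-molt share for long genes and 0.451 for shorter ones. Within the fragments of all low-level genes the long ones held 28.8% ± 0.432 in post-molt, against 30.2% ± 1.42 in pre-molt (SD, n = 3 each), the groups overlapped, and the two-sided exact permutation test gave p = 0.3. A difference particular to long genes was not shown, and this test could not decide it, since its p cannot fall under 0.1. The 98 genes ran against this, with 0.354%, 0.227% and 0.230% in post-molt, against 0.163%, 0.136% and 0.201% in pre-molt, and the rule that chose them fixes much of this direction. Shares of fragments depend on every other gene in the library, whereas the deposited FPKM were scaled to a library size that was 0.280 to 0.344 of all recovered fragments for post-molt libraries and 0.633 to 0.819 for pre-molt libraries.

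**Figure D5:**
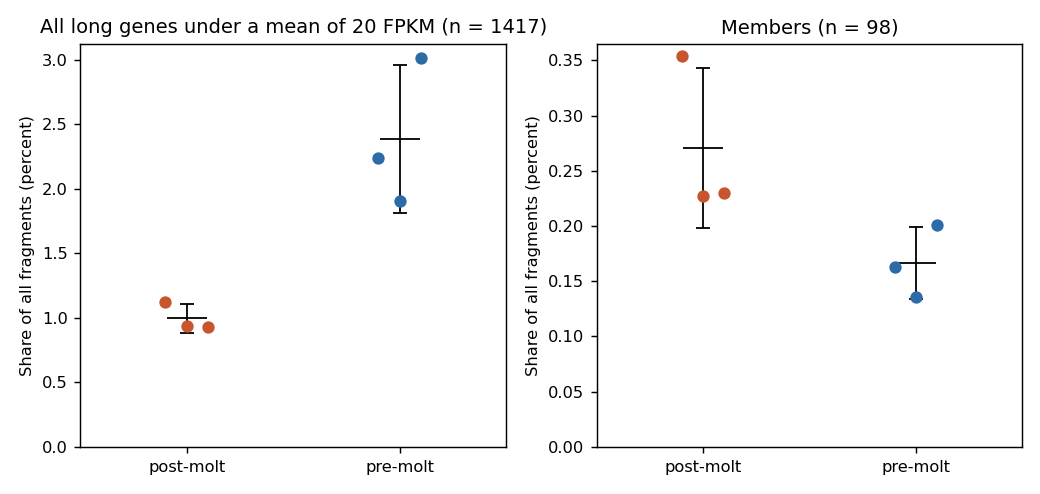
Share of all recovered fragments in 1417 long genes with a mean under 20 FPKM and in the 98 listed long genes, with each of 3 post-molt and 3 pre-molt libraries as a point and the mean ± SD in black. The first share is lower in every post-molt library, and the second is higher in every post-molt library.

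Lists from the study that cover other stages held 26 of the 98 genes, or 26.5%, against 128 of the shorter genes, or 22.03%. Both sets were drawn from the authors' list for the present contrast. The lists named 904 genes in all, beside 18729 genes in the table of expression levels. These lists name genes that changed in both expression and chromatin accessibility between neighbouring stages. Each list compares pre-molt or post-molt muscle with another stage, and the study took its pre-molt and post-molt data from the authors' earlier work. All are therefore treated as chosen partly on these libraries, and none is independent evidence of direction. The list of 451 genes that go down from post-molt to inter-molt held 23 of the 98, each with the higher mean in post-molt. The list of 327 genes that go up from pre-molt to molt held 8, again all higher in post-molt. So were the 3 held by the list of 60 genes that go up from molt to post-molt. The list of 164 genes that go down from pre-molt to molt held 1, which was lower in post-molt.

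The study's text mentions 1 of the 98 genes, evm.TU.CM024099.1.306 of 5372 bases, which its annotation places in the signaling pathway of G protein-coupled receptors, the membrane receptors that pass on hormone and transmitter signals, without receptor activity of its own. It had 10.05, 3.90 and 6.69 FPKM in post-molt, against 1.94, 1.37 and 2.33 FPKM in pre-molt. All post-molt libraries were above all pre-molt libraries, with means of 6.88 ± 3.08 and 1.88 ± 0.485 FPKM (SD, n = 3 each), a ratio of 3.66. The post-molt libraries differed by more than 2-fold among themselves, and limma did not call the gene.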

How the data were processed

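The members and lists were chosen with earlier results of these data known. Per the submitters' processing notes, reads were aligned with HISAT2 2.0.5 and counted with featureCounts 1.5.0-p3. The authors deposited FPKM for 18729 genes, and a comparison table of 1684 genes with a normalized signal per library (counts divided by a size factor) and gene length. The FPKM columns carry another tissue prefix, but equal the muscle columns up to length and 1 factor per library. The authors' group means, fold changes and p-values were not used, and 0 per-library columns were left out. Levels came out as whole fragments for 100% of values within 0.001, and the recovered length was exact for 98.6% of 1684 genes and a fraction of it for 23. Genes that averaged 0.5 FPKM or more over the libraries were tested on log2(FPKM + 1) with limma 3.58.1 (R 4.3.3, intensity trend, group only, Benjamini-Hochberg over 17465 genes). Fold changes on this scale understate those of low genes. edgeR 4.0.16 and DESeq2 1.42.0 on recovered fragments, other scalings, pseudocounts, filters, limits and left-out libraries were alternatives, and scripts were tested on simulated data. Named genes were the 8 highest and 8 lowest limma changes among called members (2 were lower), the 3 longest, those nearest each limit, the 3 with most fragments and called neighbours with no gene between. No sequence is shown, since no sequence table was used here.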

Additional observations from a re-analysis of the deposited data

How the results depend on the processing

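No alternative turned the sign of the members' median or of the difference between long and shorter genes, and no called change of the 20 named genes turned its direction. Over 340 refits of single named genes, 294 kept their side of the threshold, 27 lost the call and 19 gained it. The 57 members called (7.54% of all genes) became 35 (all higher, 0 lower) with log2(FPKM + 5), against 5.58% of all genes, 94 (17 lower) with edgeR, against 11.3%, 93 (17 lower) with DESeq2, against 9.57%, 97 of 169 (95 higher) at a length minimum of 3000 bases, and 14 of 32 (13 higher, 1 lower) at 6000 bases. The 55 higher and 2 lower calls became 30 and 18 at a common FPKM sum, where 3.77% of all genes were called higher and 41.2% lower. Lower calls, against 1.6% of all genes called lower as deposited, were 5 with quantile normalization (3.48%), 4 without the trend (1.63%), 11 with array weights (4.37%) and 1 with a pre-molt maximum under 10 FPKM. At an unadjusted p under 0.05, 18 were lower with log2(FPKM + 5). For this and the later counts at an unadjusted p, the share of all genes was not computed. The members came from a list made on this contrast, so these counts only describe them. The median log2 fold change of 1.46 became 1.82 with log2(FPKM + 0.1), 0.83 with log2(FPKM + 5), 0.43 at a common sum, 1.32 with quantile normalization, 1.87 with edgeR, 1.88 with DESeq2 and 1.01 at 6000 bases. The difference between long and shorter genes of −0.13 became −0.059 at a common sum, −0.21 with edgeR and −0.20 with log2(FPKM + 0.1). The causes were not tested.

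Leaving out each library gave 33 to 53 members called (4.49% to 8.08% of all genes), 33 to 50 higher and 0 to 3 lower (9 to 16 at an unadjusted p). Of the 57 calls, 32 held in all 6 of those fits, a count that was not made over all genes. The medians were then 1.35 to 1.49, and the difference between long and shorter genes −0.17 to −0.10. The share of fragments in long low-level genes differed by −1.63 to −1.07 percentage points between the stages, lower in post-molt each time. Within the fragments of all low-level genes, an alternative chosen after seeing the data, it differed by −1.43 percentage points. Same-numbered libraries did not deviate together (correlations of −0.03, −0.03 and −0.05 over all genes), so the numbers do not pair the samples. With the replicate block 38 members were called, all higher and 0 lower (16 at an unadjusted p), out of 1003 genes in all.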
